A study of Mus musculus with 6 samples.

Results

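Beta-defensins are small secreted cationic peptides that are best known for killing microbes on epithelial surfaces and for attracting immune cells through chemokine receptors. The mouse genome carries them as a large family in a few clusters, and many of its members are known chiefly from the male reproductive tract, where epithelia secrete peptides that coat sperm. The 42 members are the genes with a symbol of the form Defb and a number, and 43 of the 22464 mRNA probes on the array belong to them, against 19053 named genes in all. The members were chosen by gene symbol alone, but the family was proposed from its detection and direction on these same arrays. The difference between the ages is therefore given here as a description, without p-values. It was measured in whole testes of male C57/BL6 mice, either neonatal (6 days after birth) or adult (8 weeks old), with 3 arrays per age. By the methods a replicate stands for a group of mice rather than for 1 animal, so the spread is that between groups of animals. The methods name more neonatal than adult mice for the same number of groups, so neonatal groups held more animals on average. No allele or treatment was applied to either age. The 6-day testis holds Sertoli cells, Leydig cells and spermatogonia, while the adult testis also holds meiotic and haploid germ cells. Fewer cells of a type and less RNA per cell cannot be told apart in such bulk samples.

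The signal is the background-subtracted Cy3 intensity of a spot, and the level is the log2 of that signal over the array's 75th percentile, with a common floor at -7.23. Levels at the floor have no order. A level compares arrays for 1 probe and not 1 probe with another. "Well above background" is the scanner software's own detection mark. The 75th percentile lay between 749.1 and 2954 over the arrays, between 66.3% and 70.2% of spots were well above background, and between 2 and 7 of the 200 negative spots of the design carried it. Outlier marks covered between 6.09% and 30.9% of spots, with the highest shares on replicate 3 of both ages, and such spots were left out of the fit. Neonatal replicates 1 and 2 and adult replicates 1 and 2 came from scan 1, and replicate 3 of both ages from scan 2. The tissue label was checked on markers. All 6 spermatid markers were well above background on every array and, with outlier-marked spots kept, all 6 were higher in adult testis, with summed linear levels of 0.459 to 0.559 on the neonatal arrays and 1091 to 1502 on the adult arrays. All 5 probes of macrophage markers were well above background at both ages, with summed linear levels of 4.16 to 5.30 on neonatal and 4.44 to 4.75 on adult arrays. Spermatocyte markers parted the ages less fully. With outlier-marked spots kept, 3 of 6 were higher in adult testis and 0 lower. The shares of all mRNA probes were 12.8% and 15.4%. Their summed linear levels were 18.5 to 28.4 on neonatal and 179 to 243 on adult arrays. Ldhc, Sycp1 and Sycp3 were well above background on every array and not past the thresholds given below.

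The genes lie in clusters on 4 chromosomes, with 2 genes (3 probes) on chromosome 1, 11 on chromosome 2, 24 on chromosome 8 and 5 on chromosome 14. RefSeq promoters (GRCm38.p6, 250 bases before to 50 bases after the annotated start) were held for 29 of the 42 genes, in 30 entries. The other 13 genes are Defb1, Defb2, Defb4, Defb12, Defb14, Defb18, Defb19, Defb25, Defb34, Defb35, Defb37, Defb40 and Defb50. The promoters below are those of 3 pairs that lie next to each other among the members and on which the results turn. Capitals mark the letters AGAACA (the repeat unit of the androgen receptor's response element), TATAAA (the TATA box), CACGTG (an E-box), TGACGTCA (the cyclic AMP response element) and TGACG, which is also the start of the latter, on either strand.

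Defb29 and Defb21 are neighbours on chromosome 2, and the first was brighter in neonatal and the second in adult testis. Defb29 is on the minus strand at chr2:152539992-152540291. Defb21, on the plus strand, has 2 annotated starts, at chr2:152572493-152572792 and chr2:152573498-152573797. None of these letters are in the Defb29 window or at the upstream start of Defb21.
Defb29: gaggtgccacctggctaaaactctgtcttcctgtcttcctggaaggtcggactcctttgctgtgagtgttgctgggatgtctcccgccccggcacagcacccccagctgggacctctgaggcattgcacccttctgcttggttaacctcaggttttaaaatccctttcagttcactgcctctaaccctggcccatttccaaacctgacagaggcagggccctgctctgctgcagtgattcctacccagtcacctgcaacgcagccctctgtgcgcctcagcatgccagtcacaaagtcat
Defb21 upstream start: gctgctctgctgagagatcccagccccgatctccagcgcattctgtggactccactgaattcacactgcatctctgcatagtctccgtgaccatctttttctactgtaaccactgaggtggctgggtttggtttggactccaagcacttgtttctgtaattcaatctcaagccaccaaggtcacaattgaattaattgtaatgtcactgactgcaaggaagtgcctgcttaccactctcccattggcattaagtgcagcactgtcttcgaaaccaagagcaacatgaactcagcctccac
Defb21 downstream start: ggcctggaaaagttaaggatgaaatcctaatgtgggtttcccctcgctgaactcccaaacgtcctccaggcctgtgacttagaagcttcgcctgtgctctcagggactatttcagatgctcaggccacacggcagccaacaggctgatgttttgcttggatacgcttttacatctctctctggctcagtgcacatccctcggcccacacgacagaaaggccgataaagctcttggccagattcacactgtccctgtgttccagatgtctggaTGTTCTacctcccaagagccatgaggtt

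Defb30 and Defb42 are neighbours on chromosome 14 whose differences between the ages had opposite signs, although Defb42 alone of them was past the thresholds given below. Defb30 is on the minus strand at chr14:63037797-63038096 and Defb42 on the plus strand at chr14:63046741-63047040.
Defb30: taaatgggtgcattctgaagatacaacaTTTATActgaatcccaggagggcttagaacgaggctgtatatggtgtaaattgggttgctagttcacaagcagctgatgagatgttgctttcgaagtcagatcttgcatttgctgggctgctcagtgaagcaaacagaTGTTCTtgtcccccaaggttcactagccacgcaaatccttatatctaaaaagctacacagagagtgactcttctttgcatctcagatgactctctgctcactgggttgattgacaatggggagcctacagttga
Defb42: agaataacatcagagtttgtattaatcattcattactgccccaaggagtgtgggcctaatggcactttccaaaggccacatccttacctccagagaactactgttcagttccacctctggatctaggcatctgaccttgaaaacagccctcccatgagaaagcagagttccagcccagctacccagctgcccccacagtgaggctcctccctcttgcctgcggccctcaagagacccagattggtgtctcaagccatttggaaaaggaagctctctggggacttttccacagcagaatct

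Defb11 and Defb15 are neighbours on chromosome 8 that were both brighter in adult testis. Both are on the minus strand, at chr8:21906383-21906682 and chr8:21932661-21932960.
Defb11: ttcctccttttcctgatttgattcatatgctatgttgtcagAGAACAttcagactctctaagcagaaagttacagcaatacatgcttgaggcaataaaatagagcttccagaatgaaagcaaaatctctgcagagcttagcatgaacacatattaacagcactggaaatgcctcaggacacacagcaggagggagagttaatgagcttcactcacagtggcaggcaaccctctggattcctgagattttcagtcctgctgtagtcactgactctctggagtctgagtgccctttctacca
Defb15: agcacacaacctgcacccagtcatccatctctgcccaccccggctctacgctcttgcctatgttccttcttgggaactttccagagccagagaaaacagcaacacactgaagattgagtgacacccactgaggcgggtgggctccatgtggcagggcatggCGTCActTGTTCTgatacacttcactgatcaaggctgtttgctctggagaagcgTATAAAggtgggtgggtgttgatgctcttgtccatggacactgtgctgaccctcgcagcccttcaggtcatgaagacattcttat

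AGAACA (or TGTTCT on the other strand) was in 18 of the 30 member promoters, against 19.0% of the 32851 promoters of the table. TATAAA (or TTTATA) was in 5 of the 30, against 13.6% of all. TGACG (or CGTCA) was in 7 of the 30, against 20.8% of all, and CACGTG in 1 of the 30, against 7.15%. TGACGTCA was in 0 of the 30, against 1.79%. In the Defb15 window the TATA box begins 35 bases before the annotated start. A match in letters is a description of the window and not a binding site.

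Of the 43 probes, 31 (72.1%) carried the detection mark on 1 array or more, against 86.0% of all mRNA probes. On all 3 neonatal arrays it was 13 probes (30.2%, against 74.1% of all mRNA probes), and on all 3 adult arrays 15 (34.9%, against 72.1%). Marks at 1 age alone depended on how many arrays were asked for. On at least 1 neonatal and no adult array it was 11 probes (25.6%, against 6.30% of all mRNA probes). On at least 1 adult and no neonatal array it was 8 (18.6%, against 5.13%). By the stricter rule of all 3 arrays the order turned. A set of 6 probes (13.95%) carried the mark on every adult array but on none of the neonatal ones, which holds for 3.31% of all mRNA probes. These 6 are Defb14, Defb15, Defb21, Defb33, Defb34 and 1 of the 2 Defb41 probes. The reverse, all 3 neonatal arrays and no adult array, held for 3 probes (6.98%, against 3.48%), namely Defb2, Defb28 and Defb42. By the weaker mark of a positive and significant signal, 2 probes (4.65%, against 1.41%) were detected on every adult and no neonatal array, and 0 (against 1.45%) on every neonatal and no adult array. All 6 arrays carried the mark for 7 probes (16.3%, against 66.6% of all mRNA probes), those of Defb19, Defb25, Defb29, Defb36, Defb45, Defb48 and the other Defb41 probe.

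**Figure D1:**
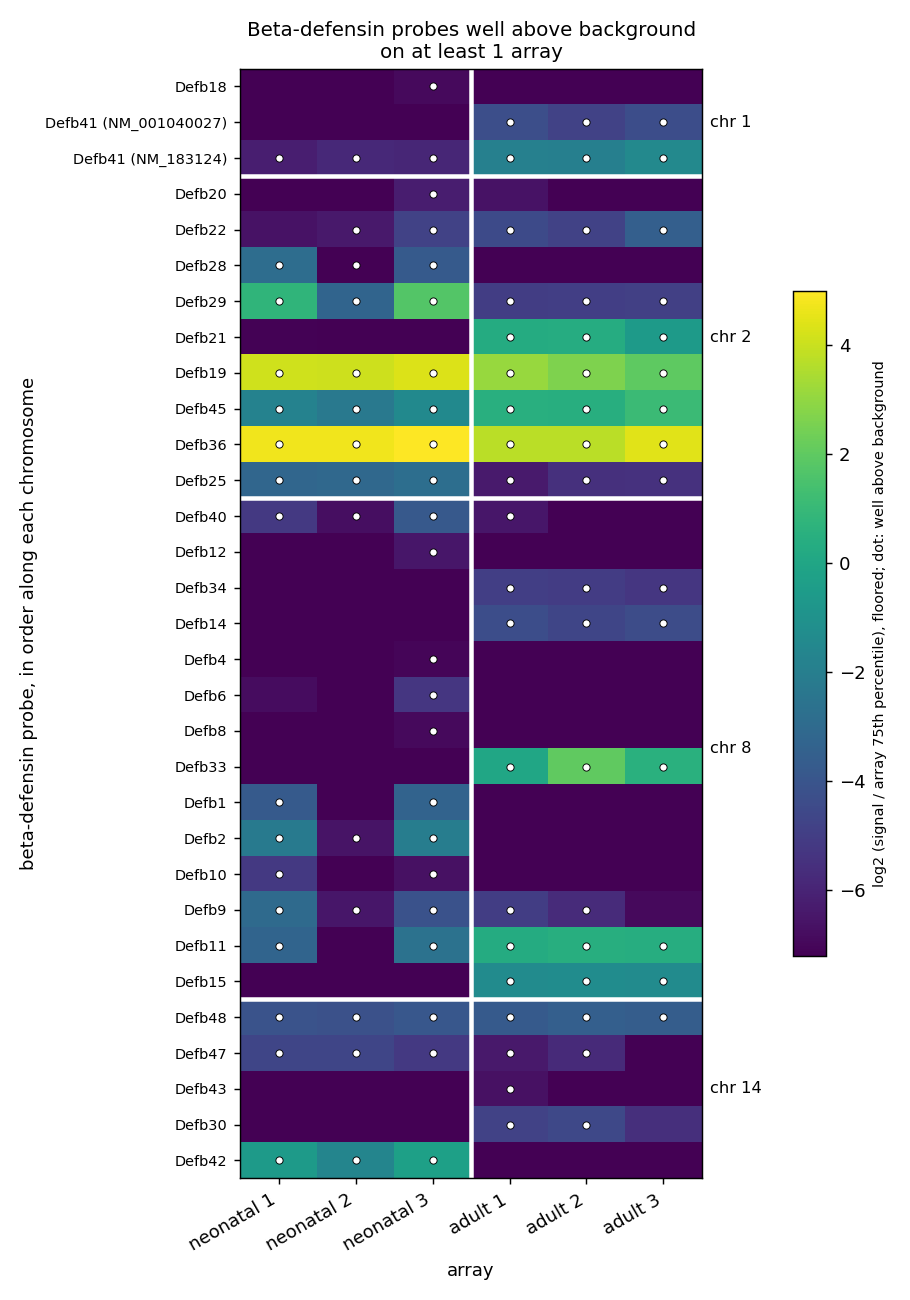
Heat map of the level, log2 of signal over the array's 75th percentile with a floor at -7.23, of the 31 beta-defensin probes that carried the detection mark on 1 array or more. Rows are probes in their order along each chromosome, columns are the 6 arrays, and a dot marks a spot well above background. Neonatal array 3 has the most dots (23) and neonatal array 2 the fewest (14), beside 77.6% and 78.5% of all mRNA probes.

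The marks of the dim members differed between arrays. Neonatal arrays 1 to 3 had 16, 14 and 23 probes well above background, and adult arrays 1 to 3 had 20, 18 and 15. Defb4, Defb6, Defb8, Defb12, Defb18 and Defb20 carried the mark on neonatal array 3 alone. Defb4 and Defb6 are known as inducible or tissue-restricted peptides of other epithelia and muscle, and here their signals on that array were 10.2 and 35.5. Defb8, Defb12 and Defb18 had signals of 11.6, 15.3 and 11.5 there, and Defb20 a level of -6.27. On neonatal array 1 the Defb12 signal was 18.8 without the mark. Defb43 was well above background on adult array 1 alone, with a signal of 18.4. The other 12 probes were never well above background, with signals between 1.36 and 12.7 (median 4.41), and 10 of them lay at the floor on all 6 arrays. These 12 are Defb3, Defb5, Defb7, Defb13, Defb23, Defb26, Defb35, Defb37, Defb38, Defb39, Defb46 and Defb50.

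The comparison of adult with neonatal testis was fitted across all lncRNA and mRNA probes with limma, and a probe counted as past the thresholds when it changed 5-fold or more with a p, adjusted by Benjamini-Hochberg over all probes, no larger than 0.05. Among 28 beta-defensin probes with enough spots free of outlier marks, 6 were past the thresholds with a higher level in adult testis, where 12.6% of all mRNA probes were. They belong to Defb14, Defb15, Defb21, Defb41 (both probes) and Defb45. A lower level in adult testis past the thresholds was found for 3 probes, of Defb25, Defb29 and Defb42, where 13.7% of all mRNA probes were. The median difference over the 28 probes was -0.11 on the log2 scale, and over all mRNA probes -0.40. Defb11, Defb19 and Defb33 could not be fitted because fewer than 2 pairs of arrays were free of outlier marks at these spots. With outlier-marked spots kept, 31 probes were tested, 8 were higher (Defb11 and Defb33 in addition) against 12.8% of all mRNA probes, and 4 were lower (Defb2 in addition) against 15.4%. Nothing is read from these counts about the family, since its choice used the same contrast.

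**Figure D2:**
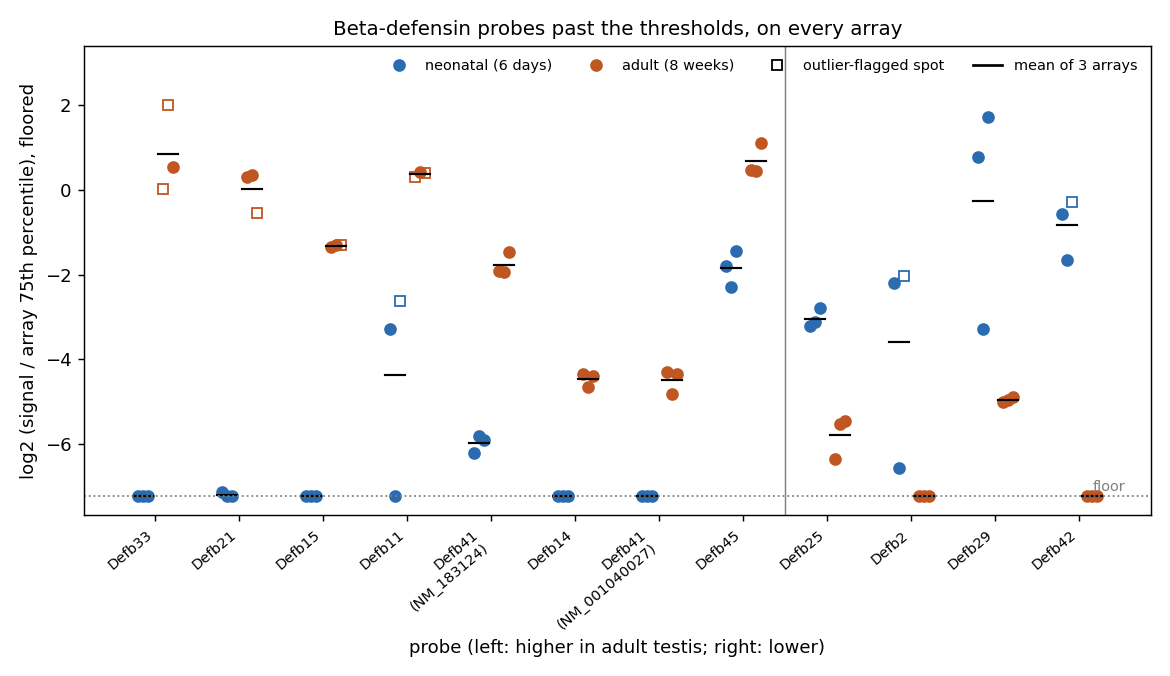
Level on each array (log2 of signal over the array's 75th percentile, floored at the dotted line) of the 12 beta-defensin probes past the thresholds with outlier-marked spots kept. Blue points are the 3 neonatal arrays, orange points the 3 adult arrays, open squares outlier-marked spots and black lines means of 3 arrays; the spread of the neonatal arrays is wide for Defb11, Defb2 and Defb29.

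The probes that were past the thresholds upward came from chromosomes 1, 2 and 8. Defb21 had levels of -7.14, -7.23 and -7.23 on neonatal arrays 1 to 3 and of 0.30, 0.35 and -0.56 on adult arrays 1 to 3, the last from an outlier-marked spot. All adult arrays stood far above the neonatal ones, none of which was well above background, and the adult mean was at least 143.3-fold higher. Defb33 was at the floor on all neonatal arrays and had levels of 0.03, 2.01 and 0.54 on the adult arrays. The first 2 of these spots carried an outlier mark, so its bound of at least 254.0-fold rests on arrays that differ among themselves by more than those of Defb21.

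Defb15, known from the epididymis, was at the floor on the neonatal arrays and had levels of -1.34, -1.29 and -1.31 on the adult arrays, the last from an outlier-marked spot. The adult arrays lay close together (SD 0.03, n = 3), and the difference was at least 56.5-fold. Its neighbour Defb11 had adult levels of 0.30, 0.43 and 0.39, above every neonatal level, but the neonatal levels were spread, at -3.29, -7.23 and -2.63. With the outlier-marked spots kept, Defb11 was 4.76 higher in adult testis on the log2 scale (SE 1.01). Without neonatal replicate 2, where Defb11 was at the floor, and without the block that value was 3.33.

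Defb41, a gene known from the epididymal epithelium, has 2 probes that agree in direction. The probe for NM_183124 was well above background on every array, with levels of -6.21, -5.81 and -5.91 in neonatal and of -1.91, -1.93 and -1.46 in adult testis. That is a difference of 4.21 on the log2 scale (SE 0.15), or 18.5-fold. The probe for NM_001040027 was at the floor on the neonatal arrays and at -4.30, -4.81 and -4.34 on the adult arrays, which is at least 6.27-fold higher.

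Defb14, the mouse counterpart of human beta-defensin 3, was at the floor on the neonatal arrays and had adult levels of -4.34, -4.66 and -4.39, at least 6.35-fold higher. Defb34, its neighbour on chromosome 8, was likewise at the floor and had adult levels of -4.98, -5.07 and -5.31, at least 4.04-fold higher. Its fitted difference of 2.11 on the log2 scale (SE 0.12) was under the fold threshold, but this value rests on the floor. With no floor it was 3.29, with quantile normalization 2.76 and with the authors' log2 values 3.03, each past the thresholds. Over the 28 alternatives it gained a call in 5, and its lowest value was 0.68. Both probes were dim in adult testis, with signals of 35.6 to 91.6 for Defb14 and 18.9 to 59.0 for Defb34. With the normexp background correction in place of the scanner's, the differences of Defb14 and of the dimmer Defb41 probe fell to 0.82 and 1.06 on the log2 scale, under the threshold.

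Defb45 was well above background at both ages. Its levels were -1.80, -2.28 and -1.45 on the neonatal arrays and 0.47 and 0.45 on adult arrays 1 and 2, with array 3 above them (adult mean 0.67 ± 0.37, SD, n = 3), without overlap. The difference was 2.52 (SE 0.13) on the log2 scale, or 5.72-fold, close to the threshold. Without neonatal replicate 2, with outlier-marked spots kept and no block, it was 2.30 and under it, as it was without adult replicate 3 and the block. It was also under the threshold with the authors' log2 values and with each array shifted to its median, at 2.26 in both. Defb22, whose peptide is known as a coat protein of epididymal sperm, had neonatal levels of -6.63, -6.40 and -4.82 and adult levels of -4.48, -4.83 and -3.52. Its difference of 1.68 (SE 0.20) did not reach the fold threshold, and neonatal array 3 overlapped with adult array 2.

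In the other direction, Defb42 was bright in neonatal testis alone. This gene, known from the epididymis, had levels of -0.57, -1.65 and -0.28 on the neonatal arrays (mean -0.83 ± 0.72, SD, n = 3), the last from an outlier-marked spot, and was at the floor on all adult arrays. The neonatal mean was at least 64.4-fold higher. Defb25 was well above background on all arrays, with neonatal levels of -3.21, -3.12 and -2.80 and adult levels of -6.36, -5.54 and -5.46. The arrays of the 2 ages did not overlap, and the level fell by 2.75 on the log2 scale (SE 0.18). With the normexp correction it fell by 1.51, under the threshold.

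Defb19 and Defb36 gave strong signals on every array, between 2939 and 51917 for Defb19 and between 16311 and 78385 for Defb36. Defb19, known from Sertoli cells of the developing testis, had levels of 4.14, 4.05 and 4.37 in neonatal and of 3.13, 2.62 and 1.97 in adult testis, all from outlier-marked spots. With those spots kept it was lower by a log2 difference of -1.61 (SE 0.30), short of 5-fold. The Sertoli cell markers had summed linear levels of 36.3 to 44.6 on the neonatal and of 10.3 to 13.4 on the adult arrays. Their part in the Defb19 difference was not tested. Defb36 had levels of 4.73, 4.73 and 5.06 in neonatal and of 3.72, 3.75 and 4.44 in adult testis, with replicate 3 of both ages from outlier-marked spots. The difference was -0.99 (SE 0.14) without those spots and -0.87 (SE 0.14) with them, and it too stayed under the fold threshold. The neonatal arrays lay above the adult arrays for both.

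Defb48 and Defb47 are neighbours on chromosome 14. Defb48 had neonatal levels of -4.10, -4.21 and -3.88 and adult levels of -3.77, -3.52 and -3.63, a difference of 0.43 (SE 0.14). Defb47 had neonatal levels of -4.68, -4.68 and -5.19 and adult levels of -6.38, -5.78 and, at the floor, -7.23, a difference of -1.61 (SE 0.22). Neither reached the fold threshold.

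**Figure D3:**
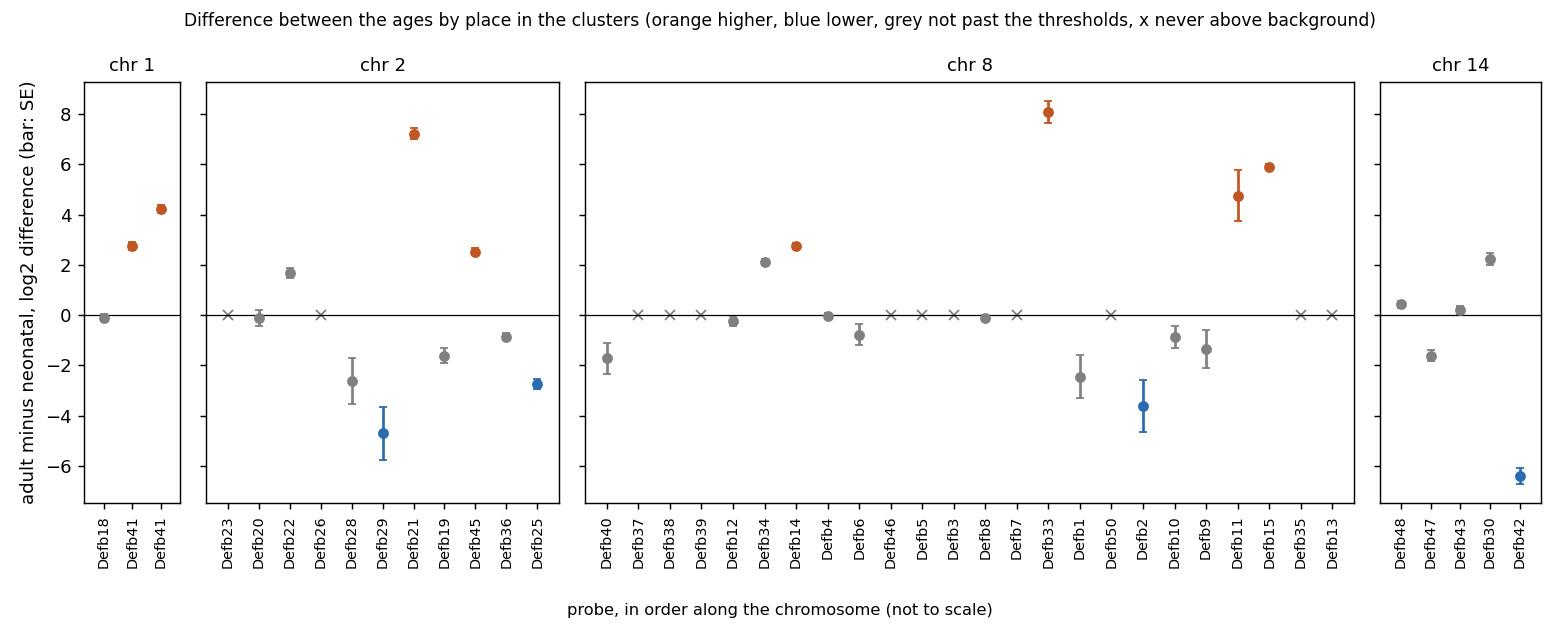
Difference between the ages (adult minus neonatal, log2 scale, outlier-marked spots kept, bars SE of the limma fit) of the 43 beta-defensin probes in their order along chromosomes 1, 2, 8 and 14, not to scale. Orange and blue points are past the thresholds, grey points are not, and a cross at 0 marks a probe never well above background, for which no difference was measured; chromosomes 2 and 8 each hold both orange and blue points, and Defb30 and Defb42 lie on opposite sides of 0 on chromosome 14.

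Chromosomes 2 and 8 each held members past the thresholds in both directions. On chromosome 2, with outlier-marked spots kept, Defb21 and Defb45 were past the thresholds upward and Defb25 and Defb29 downward, and on chromosome 8 Defb14, Defb33, Defb11 and Defb15 upward and Defb2 downward. On chromosome 14, Defb30 was at the floor on the neonatal arrays and had adult levels of -4.80, -4.58 and -5.58, of which the first 2 were well above background. The adult mean was at least 4.42-fold above the neonatal one, and the fitted difference of 2.24 (SE 0.23) was not past the thresholds. Its neighbour Defb42 was brighter in neonatal testis. The array also carries lncRNA probes that the study annotates as exonic sense overlaps of these 2 genes, and both were picked from its list of changed lncRNAs, so their values are a description. The lncRNA AK019622, at Defb30, had levels of -7.23, -7.04 and -6.45 in neonatal and of 1.02, 1.22 and 1.29 in adult testis, a difference of 8.25 (SE 0.14) in the same direction as Defb30. That fitted value includes the floored level of neonatal array 1. The lncRNA uc007uhg, at Defb42, had levels of -3.05, -3.08 and -2.48 in neonatal and of 0.63, 0.46 and 0.21 in adult testis, a difference of 3.61 (SE 0.14). That is opposite in sign to the Defb42 mRNA probe, which was at the floor on every adult array. The positions of these probes were not compared here. The spots of both lncRNAs on adult array 3 were outlier-marked and left out of these fits.

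The neonatal replicates differed for several members. Of the 23 beta-defensin probes well above background on at least 1 neonatal array, 6 were at least 4-fold brighter on both neonatal replicates 1 and 3 than on replicate 2, which held for 0.275% of the 18158 mRNA probes with such a mark. The reverse, replicate 2 at least 4-fold above both others, held for 0 members and 30 mRNA probes. This pattern was looked for after the values had been seen. The 6 members are Defb1, Defb2, Defb9, Defb11, Defb28 and Defb29, and 4 of them had no outlier-marked spot on a neonatal array.

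Defb29 had levels of 0.78, -3.28 and 1.73 on the neonatal arrays and of -5.01, -4.97 and -4.90 on the adult arrays. All neonatal arrays stood above the adult ones, and the level fell by 4.70 on the log2 scale (SE 1.07), but against neonatal replicate 2 alone it fell by 1.68. Without replicate 1 it fell by 4.16 and without replicate 3 by 3.74, and in neither case was it past the thresholds. With no block it stayed past them without neonatal replicate 3 alone (-3.708) but not without neonatal replicate 1 alone (-4.185). Defb2, known as an inducible peptide of airway epithelium, had neonatal levels of -2.20, -6.57 and -2.02 and was at the floor on the adult arrays, at least 9.46-fold lower there. The spot on neonatal replicate 3 was outlier-marked. Without it the bound was 5.48-fold, and Defb2 was not past the thresholds, with a difference of -2.84 (SE 1.25). Defb28 had neonatal levels of -2.84, -7.21 and -3.78 and was at the floor on the adult arrays, at least 4.69-fold lower. On replicate 2, Defb2 and Defb28 lay within 1 unit of the floor. Their distance there from the adult arrays, all at the floor, was not measured.

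Defb1, known as the constitutive beta-defensin of many epithelia, had neonatal levels of -3.74, -7.23 and -3.35, was well above background on replicates 1 and 3 only, and was at the floor on the adult arrays. Its fitted difference of -2.45 (SE 0.87), which includes the floored value of replicate 2, was not past the thresholds. Defb9 had neonatal levels of -3.02, -6.49 and -4.13 and adult levels of -5.02, -5.72 and -6.92, with overlap. The milder cases Defb40 and Defb10 had neonatal levels of -5.18, -6.79 and -3.81, and of -5.19, -7.23 and -6.68. Their adult levels were -6.48 for Defb40 on array 1, the floor on its other adult arrays, and the floor on all adult arrays for Defb10.

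Leaving replicate 2 out changed which members were past the thresholds. With outlier-marked spots kept, no block and without neonatal replicate 2, 7 of 31 probes were higher (12.8% of all mRNA probes) and 7 were lower (15.5%), the latter being Defb1, Defb2, Defb25, Defb28, Defb29, Defb40 and Defb42. With replicate 2 as the lone neonatal array, assumed to vary like the adult arrays, 8 of 23 probes were higher (12.3%) and 2 were lower (13.5%), Defb25 and Defb42. Both sets of arrays were chosen after replicate 2 was seen to be low for these members, so the shift in the lower count is a description.

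**Figure D4:**
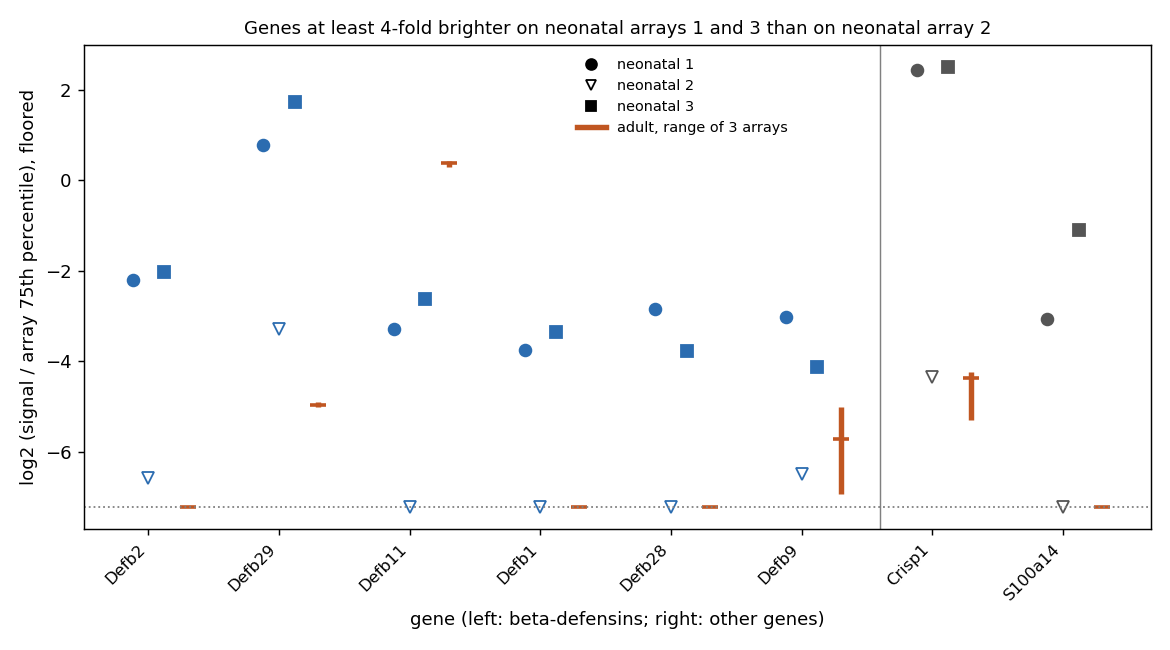
Level (log2 of signal over the array's 75th percentile, floored at the dotted line) of the 6 beta-defensins that were at least 4-fold brighter on neonatal replicates 1 and 3 than on replicate 2, and of 2 other genes with the same pattern, Crisp1 and S100a14. Circles, open triangles and squares are neonatal replicates 1, 2 and 3 and orange bars the range of the adult arrays; the triangle is at least 2 units below the circle and the square for every gene drawn, and Crisp1 spans from -4.34 to 2.51.

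Other genes moved with this pattern, and their part in the beta-defensin values was not tested. Whether some neonatal samples held epididymal tissue was not tested either. Over the 50 mRNA probes that met it, 24 had no outlier-marked spot on a neonatal array. The widest gap on this floored scale was that of Crisp1, a secreted sperm-binding protein of the epididymis, with levels of 2.43, -4.34 and 2.51 on neonatal arrays 1 to 3 and of -4.23, -4.37 and -5.30 on the adult arrays. Its spot on neonatal array 3 was outlier-marked. Another gene with the pattern, and with no outlier-marked neonatal spot, was S100a14, a calcium-binding protein known from epithelia. It had neonatal levels of -3.06, -7.23 and -1.09 and was at the floor on the adult arrays.

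The epididymis marker list held 18 probes of 15 genes. Its summed linear level was 5.89, 0.426 and 6.49 on neonatal arrays 1 to 3 and between 0.624 and 1.06 on the adult arrays, and 2 of its 18 probes had the pattern, Crisp1 among them. Crisp1 made up most of the neonatal sums on replicates 1 and 3. Without it the other 17 probes summed to 0.499, 0.376 and 0.782 on the neonatal arrays and to 0.571, 0.707 and 1.03 on the adult arrays. All 3 neonatal arrays were well above background for 5 of the 18 probes and all 3 adult arrays for 7, beside 74.1% and 72.1% of all mRNA probes. Adam7, Lcn10, Crisp1 and 1 of the 3 Adam28 probes were so on all 6 arrays, Cst11 on the neonatal arrays and adult array 1, and Lcn9 and Rnase10 on the adult arrays alone. Of the other defining markers, Lcn8 and Teddm1a were never well above background and Gpx5 was so on neonatal array 3 alone. Lcn5 was well above background on neonatal array 1 for 1 of its 2 probes and nowhere else. In the fit, 1 of 13 tested probes of the list was higher in adult testis (Ros1, at least 23.7-fold) and 0 were lower, beside 12.6% and 13.7% of all mRNA probes. The list of stratified epithelium had summed linear levels of 8.47, 10.47 and 3.10 on the neonatal and of 1.54 to 3.12 on the adult arrays. Sfn, an epithelial stratifin, made up most of the sums on neonatal replicates 1 and 2, with neonatal levels of 2.71, 3.16 and 0.43, and without it the neonatal sums were 1.94, 1.52 and 1.75. These Sfn levels all came from outlier-marked spots. None of the 13 probes of this list had the pattern at its 4-fold cut. The smaller gap of neonatal replicates 1 and 3 over replicate 2 was 1.89 for Krt14 and 1.54 for Krt5 on the log2 scale. It was -0.70 for Krt10, -2.73 for Sfn and between -0.21 and 0.37 for the Trp63 probes. In the fit, 1 of 10 tested probes was lower in adult testis (Krt14, 11.1-fold) and 0 were higher. Of all mRNA probes it was 13.7% and 12.6%. Of the keratins of this list, Krt14 had levels of -2.20, -4.09 and -1.37 in neonatal testis, Krt5 of -4.12, -5.66 and -3.24 and Krt10 of -0.62, -0.65 and -1.35. The Krt10 spot was outlier-marked on every array.

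Related genes were read from lists made by name. The alpha-defensins, the sister family best known from intestinal Paneth cells, had 11 probes. Of these, 8 were never well above background, which held for 14.04% of all mRNA probes. Among the alpha-defensins 3 probes were tested and 0 passed the thresholds, beside 12.6% higher and 13.7% lower of all mRNA probes. Spag11a and Spag11b, epididymal genes of the same chromosome 8 region with beta-defensin-like products, had 3 probes and none was well above background. Of 14 tested probes of other antimicrobial proteins, 5 were higher and 4 lower in adult testis, where 12.6% and 13.7% of all mRNA probes were. Lcn2, which binds bacterial siderophores, was higher by 4.21 on the log2 scale (SE 0.14). Mpo, the peroxidase of neutrophil granules, was higher by a fitted 6.17 (SE 0.43), which includes the floored value of neonatal array 1. S100a9, a subunit of calprotectin, was at least 22.8-fold lower, and Wfdc2, a secreted whey acidic protein of reproductive epithelia, fell by 4.08 (SE 0.15).

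A list of 4 receptors to which beta-defensins are known to bind was read likewise, and each carried the detection mark on some array. Ccr6, the chemokine receptor through which beta-defensins attract immature dendritic and memory T cells, had neonatal levels of -7.23, -7.23 and -6.52 and adult levels of 0.08, 0.43 and 0.84. It was the 1 of 4 receptors past the thresholds, higher in adult testis, beside 12.6% higher and 13.7% lower of all mRNA probes. Its fitted difference of 7.44 on the log2 scale (SE 0.12) includes the floored values of neonatal arrays 1 and 2. Ccr2, Tlr4 and Mc1r had differences of -0.46, -1.35 and -1.44. Genes of the NF-kB and interleukin routes that induce defensins elsewhere had 10 probes. Of these, 6 were tested and 0 passed the thresholds, beside 12.6% higher and 13.7% lower of all mRNA probes. The median difference of the 6 was -0.75, beside -0.40 over all mRNA probes. The neutrophil markers had summed linear levels of 0.171 to 0.471 on the neonatal and 0.661 to 0.914 on the adult arrays, with 1 of 5 tested probes higher and 2 lower, beside 12.6% and 13.7% of all mRNA probes. Mpo made up most of the adult sums. Without it the other 6 probes summed to 0.464, 0.164 and 0.307 on the neonatal arrays and to 0.0406 to 0.0486 on the adult arrays.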

How the data were processed

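Whole-testis RNA was measured on 6 one-colour arrays. The authors made cDNA from an oligo dT primer, and the Cy3-labelled product was scanned and quantified with Agilent Feature Extraction 10.5.1.1. In the deposited scanner output every spot has an intensity with its background subtracted within the array, beside the software's marks of detection and of outliers. The authors also deposited log2 values made with GeneSpring GX, which were used as an alternative only. On each array at least 99.7875% of them match, to 0.001, log2 of the signal (no less than 5) shifted by 1 constant per array, although the methods name quantile normalization. The study's supplementary lists of fold changes and p-values were not used.

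Spots were divided by the array's 75th percentile (control probes excluded), floored at the highest scaled value that a signal of 5 gives (-7.23 after the log) and log2-transformed. Gene symbols for mRNA probes come from the RefSeq accession of the probe and a GRCm38.p6 gene table, which matched 21905 of 22464 probes (97.5%). The 14717 lncRNA and 22464 mRNA probes were fitted together with limma 3.58.1 in R 4.3.3. The block was the number of the replicate, since the methods name a paired test. Probes had to be well above background on at least 1 array with at least 2 complete pairs of spots free of outlier marks, and no spot was saturated. Where 1 age had no array well above background, the fold is a lower bound. It sets the mean of the bright age, outlier-marked spots kept, against the higher of the probe's own level and the lowest level well above background on each array of the other age. Linear levels were summed over the probes of a list with the floor applied, and, as a choice made after seeing the data, again without the gene that added most.

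Pairing was checked by correlating, over 7333 probes, how same-numbered arrays of the 2 ages departed from their age means. The correlation was 0.50, 0.43 and 0.78 for numbers 1 to 3, and 0.51 and 0.47 between different numbers of scan 1. Within scan 1 a shared number thus went with no higher correlation, and number 3 cannot be told apart from scan 2. The number of arrays limits the precision, and the dimmest spots well above background had signals of 6.09 to 24.0, depending on the array.

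The members and the gene lists were chosen with earlier results of these data known. Members well above background on all 3 arrays of an age, or past the thresholds, were named with every value, the others with their arrays. Genes of the lists were named where well above background on all 3 arrays of an age, at most 4 a list but more of the epididymis markers. List genes that only describe a missing marker, and the genes of the neonatal replicate pattern, were named after their values were seen. The fit was tested on simulated data. The alternatives were other floors, scalings, background corrections, filters, blocks, detection marks and tests, the authors' log2 values and leaving out replicates. The normexp correction used the median spot signal, since the files used here hold no mean spot signal.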

Additional observations from a re-analysis of the deposited data

How the results depend on the processing

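The count of 6 beta-defensin probes higher in adult testis stayed between 4 and 9 under every alternative run, and the count of 3 lower was less stable. It was 5 with no floor, with a prior variance that follows intensity and with the authors' log2 values, 6 with quantile normalization, and 1 by the methods' paired t-test before and after adjustment. Without single replicates it ranged from 1 to 6, and in the fits with no replicate block that leave out single arrays from 1 to 5 (7 with outlier-marked spots kept and without neonatal replicate 2, a setting chosen after seeing the data). It was 1 without replicate 1 and 6 without replicate 2. The fit with no replicate block gave 6 higher and 3 lower, as did the scan as a block, and the block changed no call of a named member. A shift of each array to its median gave 5 higher and 4 lower.

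Defb29 lost its call without replicate 1 or replicate 3, with no filter on dim probes, without any 1 adult array in the fit with no block and by the paired t-test, and Defb42 by the paired t-test. Defb9 turned to 0.60 on the log2 scale with neonatal replicate 2 as the lone neonatal array. The cause was not tested. Over all values under the alternatives of the fitted members well above background on all 3 arrays of an age, with those of Defb29 and Defb42 included, 431 kept their side of the thresholds, 28 gained a call and 21 lost it. The other 2, both of Defb9, turned direction.

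Over all mRNA probes, 1908 were higher and 2074 lower. With a fold threshold of 2 these were 3530 and 5527, and with the authors' log2 values 2276 and 3873. The t-test after adjustment gave 1265 lower. Without single replicates the higher count ranged from 865 to 1878 and the lower count from 933 to 2045. The number of mRNA probes tested also fell, from 15121 to 8026, 7839 and 14546 without replicates 1, 2 and 3. With no block and without single arrays the higher count ranged from 913 to 1922 (924 without adult replicate 1, 913 without adult replicate 2) and the lower from 997 to 2156 (1022 without neonatal replicate 1, 997 without neonatal replicate 2). The median difference moved from -0.40 to -0.73 with quantile normalization, -0.65 with a shift to the median, -0.84 with the authors' values and -0.0036 with no filter on dim probes. With no block it was -0.119, -0.0877 and -0.364 without neonatal replicates 1, 2 and 3 in turn, and -0.609 without adult replicate 1. The median of the beta-defensin probes moved from -0.11 to -0.60 with quantile normalization and turned to 0.13 with the authors' values, 0.19 with signals floored at 5 before scaling and 0.59 with neonatal replicate 2 as the lone neonatal array. With no block it was -0.153 without neonatal replicate 1 or 2, -0.401 without neonatal replicate 3 and -0.274 without adult replicate 1. Without any 1 neonatal array it lay below the median over all mRNA probes, in place of above it. Counted as not detected when outlier-marked, 9 in place of 15 beta-defensin probes were well above background on all 3 adult arrays. Without that rule it was 72.1% of all mRNA probes, and their share under it is not given here. By the weaker mark of a positive and significant signal it was 22 of 43 (51.2%, against 81.6% of all mRNA probes).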
